A study of Mus musculus with 30 samples.

Results

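The genes described here are 10 genes of the platelet cytoskeleton: the tubulins Tubb1, Tuba8 and Tuba4a, the actin gene Actb with the monomer-binding proteins Tmsb4x and Pfn1, the myosin II subunits Myl9 and Myh9, the crosslinker Flna and the integrin linker Tln1. They were taken by symbol from the 54532 Ensembl genes of the platelet and PBMC (peripheral blood mononuclear cell) count tables, and the symbol of each matched 1 gene ID. All 10 had counts in each of the 30 libraries and passed the filter on low counts in every comparison. Blood of female C57BL/6 mice, aged 6 to 8 weeks when the experiment began, was collected on day 14 after a subcutaneous injection into the right flank. C group received 100 µl HBSS (Hank's Balanced Salt Solution) without cells, S group 2000 cells of B16F10, a mouse melanoma line, and the O group 100000 cells. Each group gave 5 platelet and 5 PBMC libraries, and each library was made from RNA pooled over several mice. By the labels the platelet pools held 10, 5, 5, 10 and 10 mice in the C group, 10 mice each in the S group (9 and 11 in pools 3 and 4 by the methods), and 3, 4, 5, 3 and 5 mice in the O group. The PBMC pools held 5 mice each in the C group, 5, 4, 5, 5 and 5 in the S group, and 3, 4, 5, 3 and 5 in the O group. By the study's account no tumor was visible in the S group at autopsy, and its pools included mice that may never form one. A pool of this group thus averages over mice that may differ. PBMCs were isolated from the blood left after the first spin of the platelet isolation. The O group pools held the same numbers of mice in both tissues, so same-numbered libraries of the 2 tissues may share mice, which no source used here states.

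The platelet keeps its disc shape by a coil of microtubules under the membrane, the marginal band, which is built from alpha- and beta-tubulin dimers. Tubb1 is the beta-tubulin largely restricted to megakaryocytes and platelets, and Tuba8 and Tuba4a are alpha-tubulins used in the same cells. On activation the platelet rebuilds its actin from a store of monomers that thymosin beta 4 (Tmsb4x) holds back and that profilin (Pfn1) hands on to growing filaments, myosin II contracts the filaments, and filamin A (Flna) and talin (Tln1) tie them to surface receptors. A platelet has no nucleus, and its mRNAs were made in the megakaryocyte. Actb, Tmsb4x, Pfn1, Myh9, Flna and Tln1 are also expressed by leukocytes.

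In GRCm38 (GENCODE M21), Tubb1 lies at chr2:174450695-174457882 on the plus strand and Myl9 at chr2:156775420-156781658, also on the plus strand. Tmsb4x (chrX:167207093-167209315) and Flna (chrX:74223461-74249820) lie on the minus strand of the X chromosome. Tuba8 is at chr6:121210696-121226854 (plus), Tuba4a at chr1:75214228-75219865 (minus), Actb at chr5:142903115-142906754 (minus), Pfn1 at chr11:70651850-70654644 (minus), Myh9 at chr15:77760587-77842175 (minus) and Tln1 at chr4:43531519-43562691 (minus). All 10 are protein-coding genes, and their merged exons span from 1162 bases in Myl9 to 12928 bases in Myh9, so levels of different genes are compared per kilobase of exon. Shares within a gene family, given further on, are shares of counts, which a longer transcript raises, and for the tubulins, thymosins, light chain and actins they are also given per kilobase.

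Tmsb4x and Tmsb10 encode the pair of short beta-thymosins whose ratio is reported below, and their coding sequences show how far reads of the pair can be told apart. Both are 135 bases long from start to stop codon, are shown 5′ to 3′ from the GENCODE M21 transcripts, and carry in capitals the 40 positions at which they differ.
Tmsb4x: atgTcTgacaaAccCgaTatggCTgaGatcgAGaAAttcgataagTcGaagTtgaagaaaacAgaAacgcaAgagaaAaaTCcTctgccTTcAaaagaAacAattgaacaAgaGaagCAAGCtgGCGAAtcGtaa
Tmsb10: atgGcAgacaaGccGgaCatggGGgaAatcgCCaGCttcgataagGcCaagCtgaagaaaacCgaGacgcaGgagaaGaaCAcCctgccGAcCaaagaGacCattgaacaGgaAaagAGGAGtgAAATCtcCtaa
The 2 coding sequences were identical over 70.4% of positions, and their longest shared run was 10 bases. Other pairs of family members were closer. Actb and Actg1 were 88.7% identical with a longest shared run of 62 bases, and Myl9 and Myl12a 85.5% with 35 bases. Tubb1 and Tubb2a were 74.9% identical with a longest shared run of 26 bases, and Tuba8 and Tuba4a 80.8% with 38 bases. Tuba1a and Tuba1b, at 98.3% and a shared run of 281 bases, and Myl12a and Myl12b, at 96.5% and 105 bases, cannot be separated securely by short reads, and the single values of these 4 genes are uncertain.

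Total counts on genes ranged from 12259036 to 25360080 per platelet library and from 13390983 to 15973449 per PBMC library. The 12 listed platelet and megakaryocyte markers took 1.49% to 5.06% of the counts of a platelet library and 0.0840% to 0.605% of those of a PBMC library, so platelet mRNA was present in every PBMC library. Gp1bb was at 0 in all 5 PBMC libraries of the S group. The 7 erythroid markers with a gene ID, of 8 listed, took 4.18% to 41.2% of platelet counts and 3.35% to 27.2% of PBMC counts. The 7 B cell markers took 0.0343% to 0.265% of platelet counts and 0.178% to 0.626% of PBMC counts, and the 9 T cell markers 0.00746% to 0.0399% and 0.0443% to 0.175%. The 6 melanocyte and melanoma markers took at most 0.000785% of a platelet library and at most 0.00484% of a PBMC library. O group pools 1 and 4, the pools of 3 mice, stood apart in both tissues. They held the 2 highest of the 15 platelet values in 484 of 6416 genes with a mean of at least 10 CPM (7.54%), and the 2 highest of the 15 PBMC values in 1437 of 8979 genes (16.0%). Values without them are given beside the comparisons of members with the O group that rest most on them. In bulk RNA fewer cells of a type and less RNA per cell cannot be told apart.

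The members together took 4.95% ± 1.45 (SD, n = 15) of the counts of a platelet library and 1.41% ± 0.227 (SD, n = 15) of those of a PBMC library. Tmsb4x alone took 3.34% ± 1.12 of platelet counts and 0.454% ± 0.129 of PBMC counts. The other 9 members summed to 1.61% ± 0.513 in platelets and 0.958% ± 0.128 in PBMCs. Most of the difference in the summed share was thus carried by a single gene. Within platelets and per kilobase of exon, Tmsb4x stood at 25164 ± 10519 TMM-normalized CPM (counts scaled to library size and, within a tissue, by edgeR's TMM factors; SD, n = 15) and ranked 5th of all genes. Myl9 followed at 3456 ± 2155 (rank 14), Tubb1 at 1365 ± 553 (rank 29), Actb at 966 ± 182 (rank 45) and Pfn1 at 411 ± 120 (rank 105). Flna (277 ± 227), Tln1 (245 ± 108), Tuba4a (156 ± 173) and Myh9 (139 ± 34.3) overlapped within their spread, and Tuba8 was lowest at 14.3 ± 4.98 CPM per kilobase. In PBMCs the order per kilobase was Tmsb4x (3307 ± 887), Actb (947 ± 212), Myl9 (396 ± 401), Pfn1 (320 ± 63.1), Tubb1 (302 ± 199), Flna (236 ± 80.9), Tln1 (154 ± 51.4), Myh9 (126 ± 17.7), Tuba4a (78.9 ± 124) and Tuba8 (2.71 ± 1.70), where neighbours from Myl9 to Flna differed by less than the larger of their SDs.

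**Figure D1:**
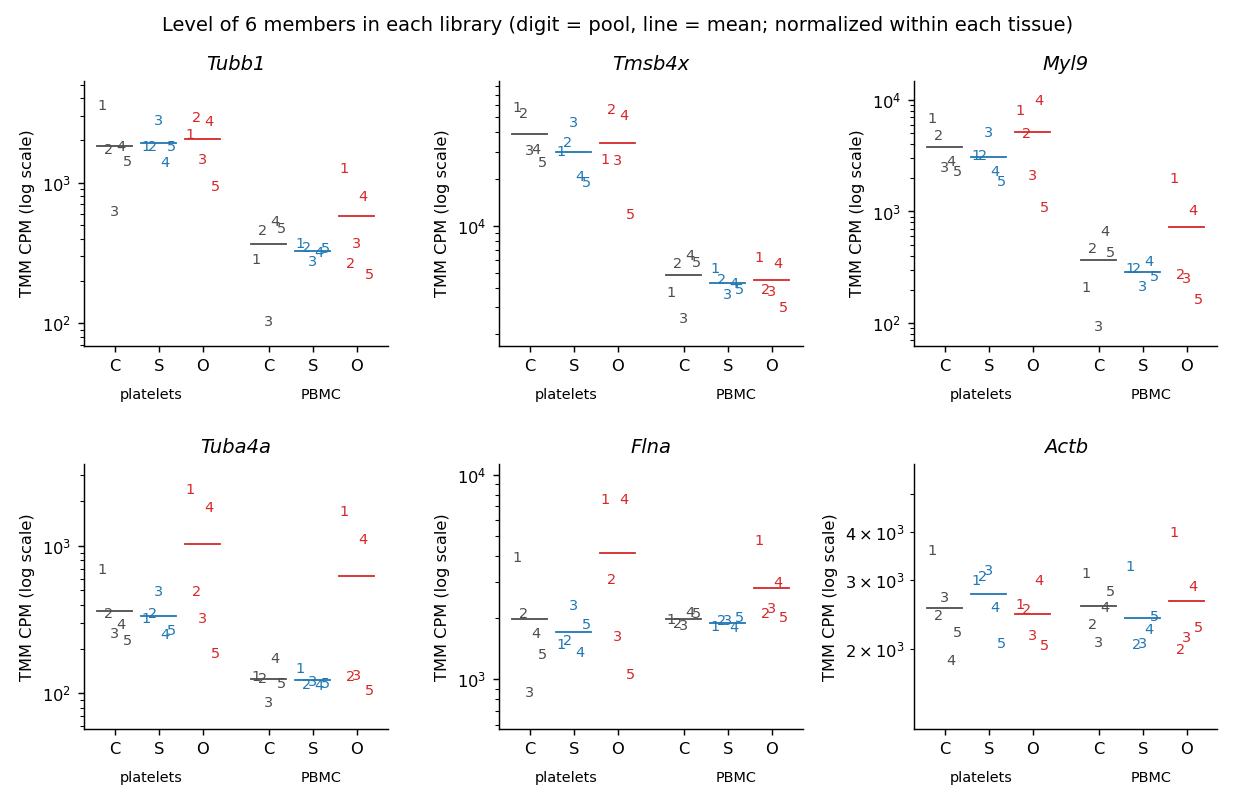
TMM-normalized CPM on a log axis for Tubb1, Tmsb4x, Myl9, Tuba4a, Flna and Actb in each library of the C, S and O groups, for platelets at the left and PBMCs at the right of each panel. Digits are pool numbers and lines are means of 5 libraries. Values are scaled within each tissue. Pools 1 and 4 of the O group lie above the other Tuba4a values in both tissues.

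The first question was whether the transcripts of these genes differed between mice with no tumor cells, few tumor cells and many tumor cells. None of the 10 members passed a Benjamini-Hochberg adjusted P of 0.05 in any of the 6 comparisons by edgeR's quasi-likelihood F test, and DESeq2 likewise called none. In platelets of the S group as compared to C group, 0 members had an unadjusted edgeR P under 0.05, beside 6.42% of 13268 genes, and 0.00754% of genes passed the adjusted threshold. For S group against the O group it was 2 members (Tuba4a and Flna) beside 13.9% of 13306 genes, and for the O group against the C group 1 member (Tuba4a) beside 4.79% of 13270 genes, with 0 genes past the adjusted threshold in both. In PBMCs it was 0 members beside 2.64% of 15139 genes for the S group against the C group, where 0.033% of genes passed the adjusted threshold. It was 2 members (Tuba4a and Flna) beside 12.2% of 14686 genes for the S group against the O group, and the same pair beside 11.9% of 14726 genes for the O group against the C group, again with 0 genes past the adjusted threshold. DESeq2 gave the same unadjusted counts of members except in PBMCs of the S group against the O group, where it gave 4. Over all genes the DESeq2 shares with an unadjusted P under 0.05 were 7.52%, 15.9% and 5.85% in platelets (S against C, S against O, O against C) and 2.51%, 13.2% and 15.2% in PBMCs. In no comparison did the 5 levels of a member in 1 group all lie on one side of the 5 levels in the other, while among genes with a mean of at least 10 CPM such a separation was seen in 1.12%, 3.90% and 0.888% of genes in the 3 platelet comparisons (S against C, S against O, O against C) and in 0.590%, 2.08% and 1.99% in the PBMC comparisons. Tuba8 had a mean below 10 CPM in PBMCs and was not among the 9 members counted there. Over all genes DESeq2 called 9, 276 and 5 genes at the adjusted threshold in the platelet comparisons and 26, 236 and 244 in the PBMC comparisons. The comparisons share groups and are not independent of each other.

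Tubb1, the beta-tubulin of the marginal band, was read at 3536, 1723, 618, 1802 and 1407 TMM-normalized CPM in the 5 platelet libraries of the C group. In S group it stood at 1792, 1793, 2753, 1392 and 1796, and in the O group at 2190, 2896, 1462, 2690 and 929. The 3 groups overlapped over most of their range, and pool 3 of the C group held the lowest value. The log2 fold change was 0.06 ± 0.36 (SE) for the S group against the C group, -0.09 ± 0.32 for the S group against the O group and 0.15 ± 0.45 for the O group against the C group, and the adjusted edgeR P values were 0.980, 0.918 and 0.972. Both comparisons with O group turned without its pools 1 and 4, to 0.07 ± 0.39 (S against O) and -0.02 ± 0.53 (O against C). In PBMCs, Tubb1 ranged from 103 to 528 CPM in the C group (median 456), from 272 to 365 in the S group (median 335) and from 221 to 1263 in the O group (median 364), where pools 1 and 4 held the 2 highest values of the 15. Its PBMC log2 fold change for the O group against the C group was 0.66 ± 0.54 with all pools and -0.38 ± 0.42 without O group pools 1 and 4, so the direction rested on these pools.

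Tuba8, an alpha-tubulin found in few tissues, was a minor transcript with 10.7 to 53.5 CPM in platelets and 1.34 to 16.7 CPM in PBMCs. Its platelet levels were 38.7, 31.3, 22.5, 26.8 and 20.8 CPM in the C group, 35.9, 40.4, 53.5, 28.3 and 24.7 in the S group, and 38.8, 35.2, 28.2, 50.9 and 10.7 in the O group. The groups overlapped, and the log2 fold change of the S group against the C group was 0.37 ± 0.21 (SE; edgeR, adjusted P = 0.771).

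Tuba4a, the alpha-tubulin with the most counts in both tissues, was the member with the largest differences in each comparison with O group. In platelets it stood at 682, 344, 254, 293 and 226 CPM in the C group, at 321, 343, 484, 248 and 267 in the S group, and at 2385, 484, 320, 1804 and 185 in the O group. Pools 1 and 4 of the O group were thus above all other platelet libraries, pools 2 and 3 lay in the range of the C group, and pool 5 was the lowest of the 15. In PBMCs the O group values were 1684, 130, 131, 1093 and 103 CPM, against 85.5 to 171 CPM in the C group (median 126) and 113 to 147 CPM in the S group (median 117), so the same 2 pool numbers stood out there. The log2 fold change of the O group against the C group was 1.52 ± 0.65 (SE) in platelets (edgeR, adjusted P = 0.910) and 2.32 ± 0.78 in PBMCs (edgeR, adjusted P = 0.346). For S group against the O group it was -1.63 ± 0.60 in platelets (edgeR, adjusted P = 0.304) and -2.35 ± 0.76 in PBMCs (edgeR, adjusted P = 0.318). Without O group pools 1 and 4, the O against C values were -0.09 ± 0.40 in platelets and -0.05 ± 0.18 in PBMCs, the S against O values were -0.03 ± 0.31 and 0.01 ± 0.11, and no member had an unadjusted P under 0.05 in any comparison with O group. Over all genes the shares without these pools were 11.5% (S against O) and 3.13% (O against C) in platelets, and 8.42% and 9.08% in PBMCs.

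**Figure D2:**
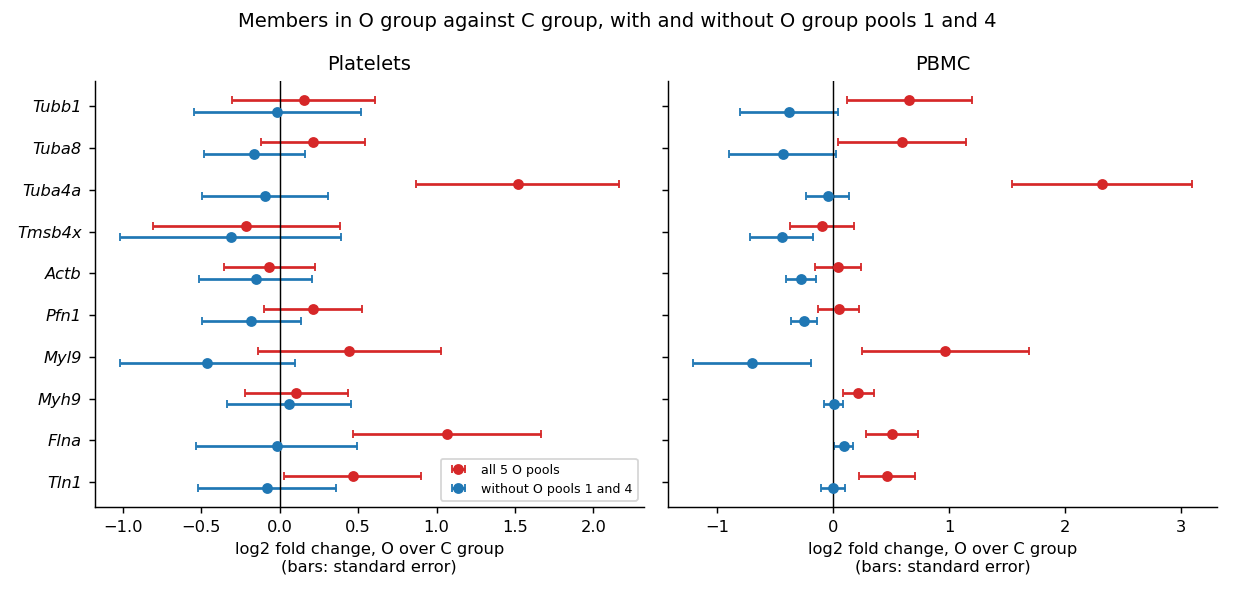
Log2 fold change of each member in the O group against the C group, in platelets (left) and PBMCs (right), with all 5 O group pools (red) and without pools 1 and 4 (blue); bars are standard errors. Tuba4a moves from 1.52 to -0.09 in platelets and from 2.32 to -0.05 in PBMCs when the 2 pools are left out.

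Tmsb4x, which encodes the main store-keeper of actin monomers, was by far the most abundant member. Its platelet levels were 57180, 52905, 30472, 30618 and 25398 CPM in the C group, 30145, 34185, 46100, 20716 and 18916 in the S group, and 26601, 55622, 26099, 50735 and 11795 in the O group. The range within each group covered most of the range of the others. The log2 fold change was -0.40 ± 0.40 (SE) for the S group against the C group and -0.21 ± 0.60 for the O group against the C group (edgeR, adjusted P = 0.838 and adjusted P = 0.970). In PBMCs Tmsb4x was at 2518 to 6416 CPM in the C group, 3574 to 5274 in the S group and 2956 to 6205 in the O group, and the medians were 5696, 4212 and 3890.

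Actb, the cytoplasmic beta-actin, varied least relative to its mean over the 15 platelet libraries. It ranged from 1857 to 3560 CPM in platelets of the C group, from 2058 to 3174 in the S group and from 2032 to 2990 in the O group, with medians of 2430, 2979 and 2517 and SDs of 645, 461 and 381. In PBMCs the medians were 2551, 2232 and 2255 CPM in the C, S and O groups. Its log2 fold changes lay between -0.14 and 0.16 over the 6 comparisons. Pfn1, the profilin of blood cells, ranged from 700 to 1239 CPM in platelets of the C group (median 961), from 630 to 1113 in the S group (median 987) and from 686 to 1637 in the O group (median 940), and O group pools 1 and 4 were the 2 highest of the 15. In PBMCs its medians were 770, 728 and 666 CPM, and its smallest adjusted edgeR P over the 6 comparisons was 0.679.

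Myl9, the regulatory light chain of platelet myosin II, was read at 6707, 4709, 2452, 2785 and 2274 CPM in platelets of the C group. In S group it stood at 3114, 3134, 5088, 2245 and 1838 CPM, and in the O group at 7987, 4939, 2094, 9802 and 1076. O group therefore held both the highest and the lowest value of the 15 libraries. The log2 fold change was -0.31 ± 0.36 (SE) for the S group against the C group, -0.74 ± 0.54 for the S group against the O group and 0.44 ± 0.58 for the O group against the C group (edgeR, adjusted P = 0.857, adjusted P = 0.544 and adjusted P = 0.935), and without O group pools 1 and 4 the S against O value turned to 0.15 ± 0.50 and the O against C value to -0.46 ± 0.56. In PBMCs the O group values were 1936, 272, 251, 1005 and 161 CPM, against 93.2 to 659 in the C group and 213 to 351 in the S group.

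Myh9, the heavy chain of non-muscle myosin IIA, stayed in a narrow range in PBMCs, with 1423 to 1610 CPM in the C group, 1526 to 1651 in the S group and 1434 to 2295 in the O group. In platelets it ranged from 898 to 2743 CPM in the C group (median 1672), from 1683 to 2370 in the S group (median 1734) and from 1383 to 2222 in the O group (median 1857). The log2 fold change of the S group against the C group was 0.12 ± 0.27 (SE) in platelets and 0.07 ± 0.06 in PBMCs, and neither passed the test.

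Flna, the actin crosslinker that anchors the von Willebrand factor receptor, stood at 3904, 2088, 854, 1673 and 1320 CPM in platelets of the C group and at 1471, 1546, 2294, 1343 and 1843 in the S group. In O group the values were 7501, 3047, 1603, 7486 and 1050 CPM, and pools 1 and 4 again exceeded all other platelet libraries. The log2 fold change of the S group against the O group was -1.27 ± 0.50 (SE) in platelets (edgeR, adjusted P = 0.319) and -0.57 ± 0.23 in PBMCs (edgeR, adjusted P = 0.367). For O group against the C group it was 1.06 ± 0.60 in platelets (edgeR, adjusted P = 0.910) and 0.51 ± 0.23 in PBMCs (edgeR, adjusted P = 0.409). Without O group pools 1 and 4 the S against O values of Flna were -0.21 ± 0.36 in platelets and -0.15 ± 0.08 in PBMCs, and the O against C values -0.02 ± 0.51 and 0.09 ± 0.08. Tln1, the talin that switches integrins to their binding state, had platelet medians of 2213, 1885 and 2833 CPM in the C, S and O groups, with 4443 and 4565 CPM in O group pools 1 and 4. Its PBMC medians were 1334, 1317 and 1489 CPM, with 3154 and 2081 in the same pools.

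O group pools 1 and 4 held the 2 highest of the 15 platelet values in 5 of the 10 members (Tuba4a, Myl9, Flna, Pfn1 and Tln1), and the 2 highest PBMC values in 6 of the 9 members with a mean of at least 10 CPM (Tubb1, Tuba4a, Myl9, Myh9, Flna and Tln1). The hemoglobin genes took 39.0%, 4.02%, 21.9%, 4.29% and 17.2% of the counts in the 5 platelet libraries of the O group, so these pools held one of the highest and one of the lowest shares. In PBMCs of the O group the shares were 24.5%, 18.2%, 15.1%, 19.2% and 6.52%. The medians of the hemoglobin share were 22.3%, 13.6% and 17.2% in platelets of the C, S and O groups and 4.64%, 5.09% and 18.2% in PBMCs, and 4 of the 5 O group PBMC libraries were above all C and S group libraries in this share. The platelet markers took 2.21%, 3.18%, 1.97%, 5.06% and 1.49% of platelet counts in the O group, and neutrophil markers 0.186%, 0.0543%, 0.0491%, 0.0313% and 0.0578%. In PBMCs of the O group the platelet markers took 0.605%, 0.182%, 0.229%, 0.496% and 0.157%, so pools 1 and 4 had the highest platelet marker shares of that group. The TMM factor of O group pool 1 was 0.553 in platelets and 0.551 in PBMCs, and that of pool 4 was 0.995 and 0.761. The part of hemoglobin, cell content or pool size in the high values of these members was not tested.

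Whether a response to tumor cells differed between the tissues was tested as an interaction in 1 edgeR fit over all 30 libraries. No member passed the adjusted threshold or an unadjusted P of 0.05 for S against C, S against O or O against C, by edgeR, with or without the pool number as a block, or by DESeq2. Over all 16498 genes 0 passed the adjusted threshold by edgeR, while 17, 165 and 1 did by DESeq2, and 5.38%, 13.6% and 6.59% had an unadjusted edgeR P under 0.05. The difference between the tissues (platelets minus PBMCs) ranged over the members from -0.28 to 0.28 for S against C, from -0.86 to 0.55 for S against O and from -0.68 to 0.65 for O against C on the log2 scale.

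The second question was how far the members belong to the platelet. All 10 members were higher in platelets than in PBMCs by edgeR's test over the 30 libraries with group as a covariate (adjusted P under 0.05), where 81% of 16498 genes were called, 35.8% as higher in platelets. Myl9 had the largest log2 fold change at 4.47 ± 0.37 (SE, edgeR, adjusted P = 2.82e-12), followed by Tmsb4x at 4.18 ± 0.25 (1.82e-15), Tuba8 at 3.68 ± 0.25 (4.31e-14) and Tubb1 at 3.48 ± 0.27 (7.09e-13). Tuba4a stood between, at 2.48 ± 0.36. Tln1 (1.92 ± 0.17), Pfn1 (1.60 ± 0.13), Myh9 (1.40 ± 0.12), Flna (1.38 ± 0.23) and Actb (1.28 ± 0.12) had smaller differences. The median over all genes was -0.17 with TMM and -1.38 when libraries were scaled by their totals alone. With library totals 7 members remained higher in platelets, and Actb (0.04 ± 0.13), Flna (0.06 ± 0.18) and Myh9 (0.14 ± 0.12) no longer passed the test, with adjusted edgeR P values of 0.747, 0.763 and 0.268. Over all genes 91.1% were called in either direction with this scaling. With the pool number within a group as a block shared by both tissues, all 10 were again higher in platelets, from 1.19 ± 0.19 for Flna to 4.54 ± 0.26 for Myl9. With the block 81.2% of all genes were called. The 10 were also called within each group of mice alone (C, S and O), where 69.3%, 64% and 67.5% of genes were called.

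**Figure D3:**
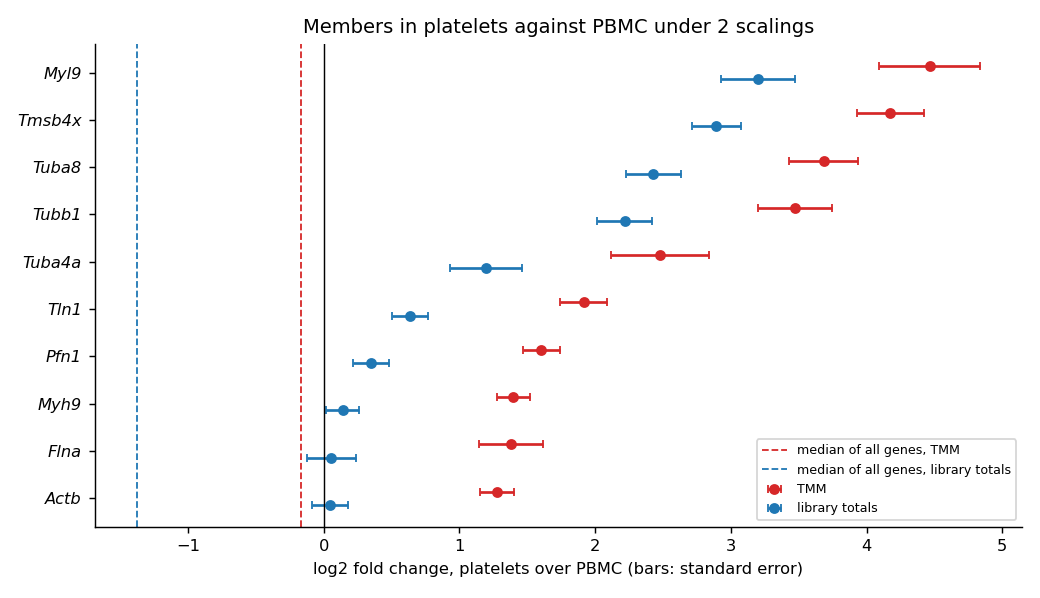
Log2 fold change of each member in platelets against PBMCs over 30 libraries, with TMM (red) or library totals (blue); bars are standard errors and dashed lines the medians of all genes, -0.17 and -1.38. Myl9, Tmsb4x, Tuba8 and Tubb1 are the 4 largest with either scaling, and Actb, Flna and Myh9 are next to 0 with library totals.

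The shares of the library total showed the same order without any normalization. Tmsb4x took 1.47% to 5.28% of a platelet library and 0.266% to 0.700% of a PBMC library, with no overlap. Myl9 (0.178% to 0.975% against 0.00987% to 0.107%) and Tuba8 (0.00177% to 0.00506% against 0.000142% to 0.000944%) did not overlap either. How many of all genes separate the tissues in this way was not counted. Tubb1 and Tln1 were above the highest PBMC library in 14 of 15 platelet libraries. Actb took 0.143% to 0.349% of platelet counts and 0.177% to 0.363% of PBMC counts, and 0 of 15 platelet libraries exceeded the highest PBMC library.

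To set each member against the amount of platelet mRNA in the same library, its log2(CPM + 1) was taken minus the mean log2(CPM + 1) of the 12 platelet markers. The value sets a member against the platelet mRNA of its own library. Tmsb4x had means of 5.40 ± 0.317 (SD, n = 15) in platelets and 5.40 ± 0.442 in PBMCs. Tubb1 (1.24 ± 0.345 and 1.82 ± 0.145), Myl9 (2.18 ± 0.311 and 1.73 ± 0.317) and Tuba8 (-4.57 ± 0.312 and -4.03 ± 0.405) overlapped between tissues, and so did Tuba4a (-0.85 ± 0.685 and 0.71 ± 0.780). For Actb (1.77 and 4.59), Flna (1.47 and 4.37), Myh9 (1.22 and 3.96), Pfn1 (0.35 and 2.87) and Tln1 (1.56 and 3.81) every PBMC library lay above every platelet library. These markers took a smaller share of PBMC counts, so the scale itself raises a gene that leukocytes also express in PBMCs. How many of all genes separate in this way was not counted. The absence of overlap is thus given as a description without a test. These overlaps were the same with a pseudocount of 0.1 CPM in place of 1 and without Pf4 and Ppbp among the markers.

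**Figure D4:**
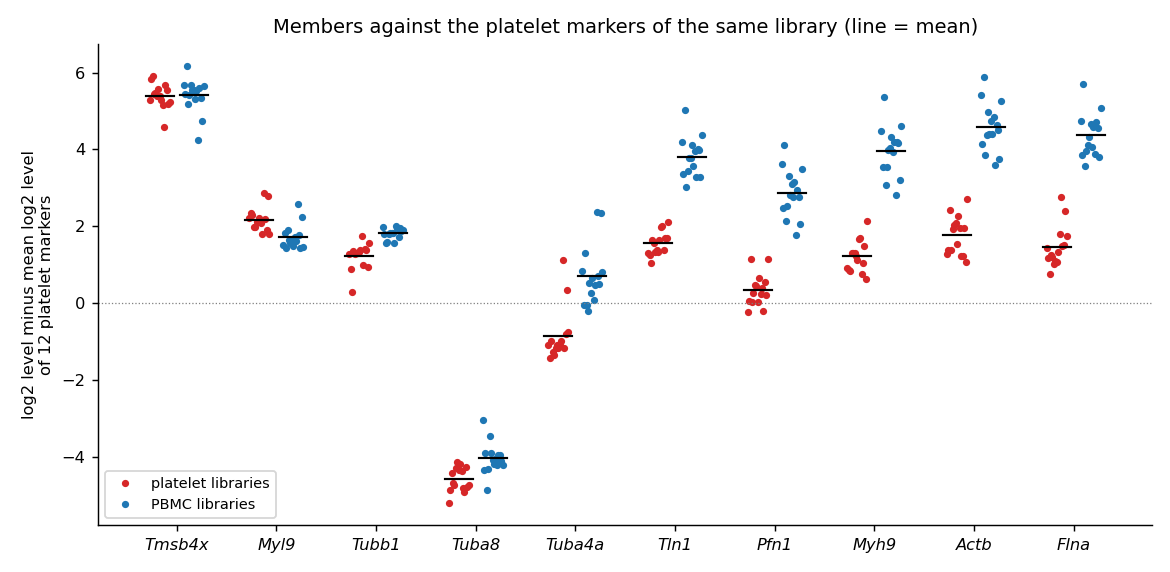
Log2 level of each member minus the mean log2 level of 12 platelet markers in the same library, with points for 15 platelet (red) and 15 PBMC (blue) libraries and lines for the means. Tmsb4x sits at 5.40 in both tissues, and the PBMC points of Tln1, Pfn1, Myh9, Actb and Flna lie above all platelet points.

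Between the groups of mice the same ratio was compared by exact permutation tests of 5 against 5 libraries, whose smallest P is 0.00794. Of 60 tests (10 members, 6 comparisons), 9 had an exact two-sided P under 0.05 (15%), and 3 without O group pools 1 and 4, which are those of Tuba8 and Tubb1 for S against C and of Flna for O against C in platelets. Groups did not overlap in 2 of the 60 (3.33%). In platelets Tuba8 was at -4.26 ± 0.1002 (SD, n = 5) in the S group and -4.77 ± 0.282 in the C group, a difference of 0.51 (exact permutation P = 0.00794). Flna was at 1.99 ± 0.569 in the O group and 1.16 ± 0.243 in the C group, a difference of 0.83 (exact permutation P = 0.00794), which fell to 0.43 without O group pools 1 and 4 (exact permutation P = 0.0357). Tubb1 was 0.40 higher in the S group than in the C group (exact permutation P = 0.0476), and pool 3 of the C group was its lowest library. Without that pool the difference was 0.22. The exact P was above 0.05 without that pool, without any 1 of the 5 S group pools and with a pseudocount of 0.1 CPM. S group pools 1 to 4 (1.31, 1.31, 1.33 and 1.40) lay below the S group mean of 1.42. Leaving out any 1 of these 4 thus did not lower the difference. The other 6 had an exact P above 0.05 without O group pools 1 and 4, where 3 libraries were compared with 5. In platelets the S minus O difference was 0.43 for Tuba8 (exact permutation P = 0.0317), -0.85 for Tuba4a (exact permutation P = 0.0317) and -0.72 for Flna (exact permutation P = 0.0397). Tuba4a was 0.98 higher (exact permutation P = 0.0238) and Tln1 0.41 higher (exact permutation P = 0.0397) in the O group than in the C group. In PBMCs the S minus O difference of Tuba4a was -0.95 (exact permutation P = 0.0238). Without O group pools 1 and 4 the platelet differences stayed at 0.37 for Tuba8 (S minus O) and 0.36 for Tln1 (O minus C). Those of Tuba4a fell to -0.20 (S minus O) and 0.32 (O minus C) in platelets and to -0.27 (S minus O) in PBMCs. That of Flna in platelets fell to -0.33 (S minus O).

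Lineage-restricted and ubiquitous isoforms were then compared as shares of the counts of their gene family within a library. Tubb1 took 65.9% ± 5.68 (SD, n = 15) of beta-tubulin counts in platelets and 42.8% ± 9.05 in PBMCs. Of the broadly expressed beta-tubulins, Tubb5 took 7.43% ± 3.14 in platelets and 30.8% ± 9.19 in PBMCs, Tubb2a 15.04% ± 2.19 and 10.1% ± 2.27, and Tubb4b 9.21% ± 1.87 and 10.9% ± 1.78. Per kilobase of exon the Tubb1 shares were 73.3% and 56.4%. By level, Tubb2a (log2 fold change of platelets against PBMCs 3.43 ± 0.27 SE) and Tubb2b (3.43 ± 0.25) were about as much higher in platelets as Tubb1 (3.48 ± 0.27). Within the S group Tubb1 took 67.0% of platelet and 41.2% of PBMC beta-tubulin counts, a difference of 25.8 points (exact permutation P = 0.00794), within the O group the difference was 20.8 points (exact permutation P = 0.00794), and within the C group 22.7 points with overlap (exact permutation P = 0.0317). Platelet pool 3 of the C group held 47.3% Tubb1, the lowest of the 15.

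Among alpha-tubulins, Tuba4a took 57.8% ± 7.64 (SD, n = 15) in platelets and 44.4% ± 12.4 in PBMCs. Tuba1b took 11.8% ± 4.79 and 25.0% ± 7.33, and the platelet share of Tuba8 was 4.57% ± 1.52 against 1.45% ± 0.558. Per kilobase of exon Tuba4a took 42.5% in platelets and 30.4% in PBMCs, Tuba1b 16.7% and 32.2%, and Tuba8 5.40% and 1.56%. The order of Tuba4a and Tuba1b in PBMCs is open on that scale. The SD of the Tuba4a share was 12.4 there, and the single value of Tuba1b is uncertain. In O group pools 1 and 4 the Tuba4a share was 73.7% and 72.8% in platelets and 75.2% and 73.0% in PBMCs, while the other O group pools ranged from 49.4% to 60.1% in platelets. The Tuba8 share in platelets was 3.72%, 5.28%, 4.43%, 5.20% and 4.84% in the C group, 5.94%, 6.26%, 6.45%, 5.66% and 5.36% in the S group, and 1.1999%, 4.37%, 4.90%, 2.05% and 2.86% in the O group. All 5 values of the S group thus lay above all values of the C and O groups. Lymphocyte markers were also highest in S group platelets by their medians. The T cell markers took 0.0227%, 0.0356% and 0.0178% of platelet counts in the C, S and O groups, the B cell markers 0.116%, 0.168% and 0.0823%, and the 5 NK cell markers 0.00402%, 0.00869% and 0.00310%, with overlap between groups in each, and their part in the Tuba8 share was not tested. The mean of the S group was 1.24 points above the C group (exact permutation P = 0.00794) and 2.86 points above the O group (exact permutation P = 0.00794), and 1.89 points above the 3 O group pools other than 1 and 4 (exact permutation P = 0.0179, the smallest that 3 against 5 libraries allow). As a share the value also moves with the other alpha-tubulins, and the level of Tuba8 itself did not pass the test.

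Tmsb4x took 98.4% ± 0.679 (SD, n = 15) of beta-thymosin counts in platelets and 90.2% ± 2.45 in PBMCs, and Tmsb10 the rest. Per kilobase the shares were 98.3% and 89.6%. The platelet share was 8.31, 8.56 and 7.55 points higher in the C, S and O groups, with no overlap (each exact permutation P = 0.00794). Myl9 took 96.0% ± 1.02 of regulatory light chain counts in platelets and 80.0% ± 8.92 in PBMCs, where Myl12a took 17.8% ± 7.84, and per kilobase Myl9 took 98.6% and 91.6%. Actb went the other way, with 47.7% ± 7.36 of the counts of both cytoplasmic actins in platelets and 69.5% ± 3.65 in PBMCs, or 47.5% and 69.3% per kilobase. In platelets the Actb share had a median of 51.2% and was above 50% in 8 of 15 libraries. The difference in the Actb share, platelets minus PBMCs, was -24.6, -18.6 and -22.2 points in the C, S and O groups, with no overlap (each exact permutation P = 0.00794). Flna took 99.5% ± 0.287 of filamin counts in platelets and 97.8% ± 0.509 in PBMCs. The means of Myh9 (99.7% and 99.6%), Pfn1 (99.8% in both tissues) and Tln1 (99.9% and 100%) left little to their paralogs.

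Over the families, 21 of 30 tests between tissues (10 members, 3 groups; 70%) and 4 of 60 tests between groups of mice (6.67%) had an exact P under 0.05. Groups did not overlap in 17 of the 30 (56.7%) and in 2 of the 60 (3.33%), both of them Tuba8. The other 2 were Actb in PBMCs, with 66.3% ± 3.08 (SD, n = 5) in the O group and 72.7% ± 2.51 in the C group (exact permutation P = 0.0159), and Flna in PBMCs, with 97.5% in the S group and 98.2% in the O group (exact permutation P = 0.0159). Neither passed without O group pools 1 and 4, where the difference was -4.59 points for Actb (O minus C) and -0.30 points for Flna (S minus O, against -0.72 with all pools). The Flna difference also missed the threshold without S group PBMC pool 1, 2 or 4. These held 97.46%, 97.28% and 97.44% against a group mean of 97.50%, so leaving out 1 of them moved the mean little. The shares of Tubb1, Tmsb4x and Myl9 gave no exact P under 0.05 between groups of mice in either tissue.

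Genes whose level over the 15 platelet libraries was most like that of 3 members were ranked by Pearson's r of log2(TMM CPM + 1) among 6415 genes. For Tubb1 they included Myh9 (r = 0.973), Ttyh3 (0.970), Atp2a3 (0.963) and Apcdd1 (0.963). For Tmsb4x they were Esd (0.990), Alox5ap (0.984), Gm14005 (0.981), Sp3os (0.977) and Ctla2a (0.976). For Myl9 they included Fcer1g (0.995), Gp9 (0.992), Atp6v0e (0.992) and Gm13509 (0.988), of which Gp9 encodes a subunit of the von Willebrand factor receptor and is among the platelet markers. Gp9 ranged from 626 to 4743 CPM in the O group platelets and Esd from 301 to 1108. The members did not move as a single block, since r was 0.658 between Tubb1 and Tmsb4x, 0.737 between Tubb1 and Myl9, 0.813 between Tmsb4x and Myl9, and 0.976 between Flna and Tln1. All these values share the libraries, their depth and their platelet content, and are descriptions.

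A wider list of 112 cytoskeleton genes in 8 roles gave no gene past the adjusted threshold in the 6 comparisons of groups by edgeR. In platelets 108 of them were tested, and those with an unadjusted edgeR P under 0.05 numbered 1 higher and 1 lower for the S group against the C group, 3 and 10 for the S group against the O group, and 6 and 1 for the O group against the C group. In PBMCs 107 were tested, with 1 and 0, 2 and 11, and 14 and 2. Without O group pools 1 and 4 the counts were 2 and 3 for S against O and 0 and 1 for O against C in platelets, and 3 and 2 for both in PBMCs. The shares over all genes were then 6.71% and 4.82%, and 1.80% and 1.33% in platelets, and 3.95% and 4.46%, and 5.19% and 3.89% in PBMCs. With all pools, the shares over all genes for higher and lower were 4.29% and 2.13%, 7.23% and 6.67%, and 2.61% and 2.17% in platelets, and 1.23% and 1.41%, 4.43% and 7.80%, and 7.56% and 4.39% in PBMCs. The members are on this list.

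Of the other genes on it, Dstn, an actin-severing protein, stood at 1190, 156, 106, 903 and 55.7 CPM in the O group platelets against 84.3 to 188 CPM in the C group and 67.2 to 120 in the S group (log2 fold change of O against C 1.90 ± 0.73 SE, edgeR, adjusted P = 0.910). Tubb3, the beta-tubulin of neurons, was at 22.7 and 11.8 CPM in the O group platelet pools 1 and 4 and at 0.199 to 1.32 CPM in all other platelet libraries (3.07 ± 1.01, edgeR, adjusted P = 0.910). Both were thus high in the pools that were high for Tuba4a, and without these pools the values were -0.24 ± 0.34 for Dstn and -0.13 ± 0.56 for Tubb3. Cfl2 and Limk1 had log2 differences of 0.71 ± 0.28 and 0.64 ± 0.26 for the S group against the O group in platelets, and Tbcd, a tubulin-folding cofactor, of -0.82 ± 0.29, and none passed the adjusted threshold. Without the 2 pools they were 0.55 ± 0.26, 0.34 ± 0.22 and -0.30 ± 0.18.

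In PBMCs the smallest P values on the list were in the O group against the C group. Tubb6, a beta-tubulin, was at 27.3 to 42.1 CPM in the O group and 22.4 to 26.4 CPM in the C group (log2 fold change 0.55 ± 0.11 SE, edgeR, adjusted P = 0.337). Diaph1, a formin that nucleates actin filaments, was at 306 to 409 CPM against 269 to 302 (0.33 ± 0.08, edgeR, adjusted P = 0.337). Neither overlapped between the groups, as was so for 1.99% of genes with a mean of at least 10 CPM. Both were named for their small P, and such genes were not counted over the list. Dmtn, a protein of the red cell membrane skeleton, was at 91.5 CPM in O group pool 1 and at 1.08 to 9.40 CPM in the other 4 pools (4.73 ± 1.28, edgeR, adjusted P = 0.337). Without O group pools 1 and 4 the values were 0.66 ± 0.08 for Tubb6, 0.25 ± 0.07 for Diaph1 and 1.40 ± 0.47 for Dmtn. In PBMCs of the O and C groups the marker medians were 0.0224% and 0.0360% for NK cells and 0.0793% and 0.141% for T cells. They were 0.325% and 0.455% for B cells, 0.0745% and 0.0576% for neutrophils, and 0.597% and 0.567% for monocytes and macrophages. The part of cell content or of the higher hemoglobin share of O group PBMCs in the differences of the named genes was not tested. Stmn1 (-0.40 ± 0.13) and Tuba3a (-0.72 ± 0.23) were the 2 lower genes with an unadjusted edgeR P under 0.05. Neither passed the adjusted threshold. Capza1, a capping protein subunit, had a log2 fold change of 0.14 ± 0.05 in the S group against the C group and did not pass the adjusted threshold.

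Between tissues, 86 of the 109 genes tested from the list were higher in platelets and 11 lower at an adjusted edgeR P under 0.05, beside 35.8% and 45.2% of all genes. The median log2 fold change of the list was 1.11, and that of all genes -0.17. By role, 11 of 14 tubulins, all 13 genes of actin and its monomers, 6 of 10 of myosin II and 10 of 12 integrin linkers were higher. The integrin linkers had the highest median of the roles (2.48), with Fermt2 at 7.51 ± 0.37 (SE) and Ilk, the integrin-linked kinase, at 4.72 ± 0.23. Among microtubule-binding proteins and motors 8 of 14 were higher and 5 lower, and Clip1 (-1.68 ± 0.12) and Dync1h1 (-0.92 ± 0.09) were among the genes with the smallest P that were lower in platelets.

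The bases upstream of Tubb1 and Myl9 are shown because Tubb1 is the beta-tubulin of the marginal band and Myl9 had the largest difference between the tissues of the 10 members. RefSeq (GRCm38.p6) gave a window before the start of 9 of the 10 members. Bases already inside the GENCODE M21 gene were left off, the strand is plus, and capitals mark a CArG box, the site of serum response factor, in Myl9.
Tubb1 (chr2:174450345-174450594): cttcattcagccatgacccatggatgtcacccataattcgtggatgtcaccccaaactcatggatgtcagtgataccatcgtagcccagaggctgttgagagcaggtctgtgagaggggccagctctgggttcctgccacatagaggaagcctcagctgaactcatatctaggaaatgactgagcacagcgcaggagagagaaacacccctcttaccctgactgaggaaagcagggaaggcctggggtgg
Myl9 (chr2:156775214-156775419): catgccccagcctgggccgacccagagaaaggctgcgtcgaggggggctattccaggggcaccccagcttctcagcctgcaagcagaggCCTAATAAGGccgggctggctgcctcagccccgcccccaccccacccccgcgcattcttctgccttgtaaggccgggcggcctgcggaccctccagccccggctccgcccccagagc
Motifs were searched on both strands in the 250 bases before the start of 32851 windows. The CArG box was found in 1.47% of windows and in Myl9 alone of the members, at -161 to -152 from the RefSeq start. The GATA motif AGATAA was found in 9.99% of windows and in no member. The ETS motif CCGGAAG was found in 6.91% of windows and in Tmsb4x, at -46 to -40. The NF-E2 motif was found in 0.134% of windows and in no member. No member held more than 1 match. A match describes letters in a window and not a bound site.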

How the data were processed

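Polyadenylated RNA of platelets and PBMCs was sequenced with a kit that does not mark strand. The deposited count tables hold raw read counts per gene that the authors made; the submitters' processing notes name HISAT2 2.0.5, featureCounts 1.5.0-p3 and DESeq2 1.16.1. Those notes also name the build mm9, whereas 54495 of the 54532 gene IDs are in GENCODE M21 (GRCm38), from which positions, lengths and symbols were taken. Groups follow the labels; platelet samples were assigned by title because their cell type tag reads PBMC. The labels number the pools, and no source used here says that a number marks shared mice. Same-numbered pools correlated above 0.1 in every pair only in PBMCs of S against C (r of 0.31 to 0.59 over 10045 genes), among the 6 comparisons of groups.

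Counts were filtered with filterByExpr and tested with edgeR 4.0.16 (quasi-likelihood F test, TMM factors, Benjamini-Hochberg adjustment, threshold 0.05) in R 4.3.3, pairwise for groups of mice and over 30 libraries for tissues and interactions. SEs were derived from the F statistic. DESeq2 1.42.0, RLE size factors, library totals, no filter, a replicate block and leaving out each library were alternatives. Shares of family counts and ratios to platelet markers were compared by two-sided exact permutation tests, printed with raw P, their number and the share that passed. The ratio uses a pseudocount of 1 CPM. Scripts were tested on simulated data. The members, lists and tests were chosen with earlier results of these data known. Named genes of the wider list are the up to 3 non-members with the smallest P per direction, and like genes the 5 with the highest r; a few genes chosen by these rules are not reported here. Libraries held 12259036 to 25360080 counts. P values measure the spread between pools of a tissue. PBMCs came from the blood used for platelets, so libraries of the 2 tissues can share mice, which the fits without a block do not model. Reads shared between paralogs could not be separated here.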

Additional observations from a re-analysis of the deposited data

Results flagged for a closer look

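In groups of 5 libraries the library farthest from the others was compared with the range of the group by Dixon's ratio (limit 0.71), over levels and family shares of the members. Of 120 groups 7 were past the limit (5.83%), where chance gives about 1 in 20. Tuba4a stood at 682 CPM in platelet pool 1 of C group against 226 to 344 in the other pools, and at 147 CPM in PBMC pool 1 of S group against 113 to 120. Myh9 stood at 2370 CPM in platelet pool 3 of S group against 1683 to 1799. Pfn1 stood at 1033 CPM in PBMC pool 1 of S group against 654 to 750. Tubb1 took 47.3% of beta-tubulin counts in platelet pool 3 of C group against 67.2% to 70.9%. Myh9 took 98.5% of non-muscle heavy chain counts in platelet pool 1 of O group against 99.8% to 99.9% in the others, and Myh10 stood there at 27.5 CPM against 2.20 to 3.78 CPM. Tln1 took 99.9% of talin counts in PBMC pool 3 of S group, the lowest of its group. Their causes were not tested.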

How the results depend on the processing

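No member passed the adjusted threshold between groups of mice or in an interaction under any alternative run, leaving out each library included, and all 10 were higher in platelets than in PBMCs under every alternative except library totals. The unadjusted counts of members were small and moved. With library totals they were 1 for S against C and 2 for O against C in platelets, 3 for S against O and 4 for O against C in PBMCs, and 1 and 2 for the interactions of S against O and O against C, beside 10.5%, 3.08%, 26.7%, 29.9%, 7.13% and 11.8% of all genes. With this scaling the median of all genes moved to 0.20 and 0.12 in the platelet comparisons and to 0.36 (S against O) and -0.37 (O against C) in PBMCs. For S against O in PBMCs the count was 5 with no filter, 4 with DESeq2 and 4 with all 3 groups in 1 fit, beside 7.08%, 13.2% and 15.8% of all genes, and for O against C it was 3 with all 3 groups in 1 fit, beside 13.7%. Without O group pools 1 and 4, chosen after the data were seen, it was 0 in the 4 comparisons with O group, and exact tests under 0.05 numbered 2 for family shares and 3 for ratios. Leaving out 1 library gave 0 to 1, 0 to 3 and 0 to 2 members (S against C, S against O, O against C) in platelets and 0 to 2, 1 to 5 and 1 to 3 in PBMCs, 3 to 8 share tests between groups (8 without PBMC pool 5 of O group), 20 to 23 between tissues, and 6 to 10 ratio tests. Shares over all genes are not given for the runs with 1 library left out.

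Directions of Tubb1, Tuba4a, Tmsb4x, Myl9 and Flna turned as follows, in log2 fold change. With library totals, platelets of S against C gave 0.13 for Tuba4a and 0.082 for Flna, platelets of S against O 0.068 for Tubb1, and PBMCs of S against O 0.38 for Tmsb4x. Without O group pools 1 and 4, S against O gave 0.069 for Tubb1 and 0.15 for Myl9 in platelets and 0.21 for Tubb1, 0.014 for Tuba4a, 0.28 for Tmsb4x and 0.34 for Myl9 in PBMCs. O against C gave -0.015 for Tubb1, -0.094 for Tuba4a, -0.46 for Myl9 and -0.020 for Flna in platelets, and -0.38 for Tubb1, -0.047 for Tuba4a and -0.70 for Myl9 in PBMCs. Leaving out 1 library gave, in platelets, -0.16 to 0.42 for Tubb1, -0.29 to 0.22 for Tuba4a and -0.41 to 0.16 for Flna (S against C), -0.29 to 0.056 for Tubb1 and -0.41 to 0.049 for Tmsb4x (S against O), and -0.065 to 0.55 for Tubb1 (O against C). In PBMCs it gave -0.40 to 0.0090 for Tubb1 and -0.14 to 0.11 for Tuba4a (S against C), -0.18 to 0.074 for Tmsb4x (S against O) and -0.26 to 0.029 for Tmsb4x (O against C). Of the 30 values of the other 5 members (6 comparisons), 13 turned with library totals, 3 with no filter, 2 with size factors of DESeq2, 2 with DESeq2 and 1 with all 3 groups in 1 fit, as did 12 of 20 without O group pools 1 and 4 and 32 of 300 with 1 library left out. The causes were not tested.

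With the pool number as a replicate block, the unadjusted count was 0 for S against O and O against C in both tissues. The shares over all genes were then 11.6% and 6.5% in platelets and 13.8% and 12.2% in PBMCs. With the block, PBMCs of S against C gave 0.023 for Tubb1 and 0.0052 for Tuba4a. The study counts 5 independent experiments, and no source used here says whether a pool number marks one. Deviations of same-numbered pools correlated over 10045 genes at 0.31 to 0.59 in PBMCs of S against C. Only in this comparison of groups was r above 0.1 in every pair. In PBMCs of S against O they correlated at 0.07 to 0.39, positive in every pair. In the other comparisons of groups they correlated at -0.26 to 0.54. Between tissues, whose libraries can share mice, they correlated at -0.18 to 0.28, -0.13 to 0.31 and 0.08 to 0.67 in C, S and O group. The block changed no adjusted call of a member. The share of Actb without Actg1 gave no value, and 3 against 3 libraries cannot reach an exact permutation P below 0.1. SEs of members between groups ranged from 0.065 (Myh9, PBMCs of S against C) to 0.78 (Tuba4a, PBMCs of O against C), so the difference that could be detected varied by member.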

Other observations

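The likeness of Tuba4a was ranked after its values had been seen. Over the 15 platelet libraries its level was most like those of F10 (r = 0.996), Tpm2 (0.986) and Tuba1a (0.985), and without O group pools 1 and 4 the values were 0.988, 0.945 and 0.941 over 13 libraries. Tpm2, a tropomyosin of actin filaments, stood at 559, 67.1, 57.1, 558 and 30.0 CPM in O group platelets and at 165, 6.53, 9.68, 76.2 and 4.12 CPM in O group PBMCs. F10, coagulation factor X, stood at 262, 51.7, 33.8, 182 and 16.7 CPM in O group platelets. Tubb3 and Sptan1 were also highest in these pools, with 20.03 and 8.71 CPM for Tubb3 in PBMCs and 405 CPM in each for Sptan1, a spectrin, in platelets. These are descriptions over libraries that share depth and cell content.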
